A study of Mus musculus with 6 samples.

Results

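A set of 10 genes of fatty acid uptake and binding was followed in brown adipose tissue (BAT) of wild type (WT) and miR-22 knockout (KO) mice. They were *Lpl*, *Gpihbp1*, *Angptl4*, *Cd36*, *Vldlr*, *Fabp3*, *Fabp4*, *Fabp5*, *Slc27a1* and *Slc27a2*, listed by their role, with a rule that uses no measured value. Earlier results of these data were known when the genes were listed. All 15 array probes whose RefSeq accession named one of the 10 genes were taken, of 56605 probes and 23462 genes on the arrays. Total RNA of BAT from 3 WT and 3 KO male mice, 8 weeks old, was labelled with a single dye, and each mouse was hybridized to 1 Agilent mouse gene expression array. The KO is constitutive and global, so miR-22 is missing from every cell type of the tissue and of the body, and the labels name no Cre transgene and no treatment. Housing temperature and diet of the mice used for the arrays are not given in the sources used here. The labels list each mouse as a sample of its own, and the numbers 1 to 3 given here to the mice are only names.

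BAT burns fatty acids to make heat, and most of these fatty acids arrive in the blood inside triglyceride-rich lipoproteins. Lipoprotein lipase, the product of *Lpl*, cuts the triglyceride at the vessel wall, where Gpihbp1 on the endothelial cell holds the enzyme and the secreted inhibitor Angptl4 unfolds it. The freed fatty acids enter the adipocyte with the help of the receptor Cd36 and of the Slc27a proteins, which also couple fatty acids to coenzyme A, while Vldlr binds lipoproteins at the cell surface. Inside the cell, the small Fabp proteins carry fatty acids through the cytosol.

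The small RNA removed in the KO mice is shown with its seed, bases 2 to 8, in capitals, since the seed is the part of a miRNA that pairs with its targets. Both mature arms come from the plus strand of mouse chromosome 11 (RefSeq, GRCm38.p6), miR-22-3p at chr11:75463772-75463793 and miR-22-5p at chr11:75463734-75463755.
mmu-miR-22-3p: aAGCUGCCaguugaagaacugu
mmu-miR-22-5p: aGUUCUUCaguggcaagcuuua
The arrays did not measure the mature miRNA. The host transcript *Mir22hg*, the long RNA from which miR-22 is cut, read 1.20, 1.69 and 1.22 in WT mice and 2.02, 2.11 and 2.23 in KO mice on the scaled log2 scale explained next. Each KO value lay above each WT value, a pattern whose share of all genes is not given here (difference 0.75, SE 0.18, limma adjusted p = 0.108). Where its probe lies relative to the deleted segment is not given, so this value does not check the genotype labels.

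Every value below is the background-subtracted signal of a probe over the 75th percentile of the array, as log2, so that 0 is the level of that percentile and 1 unit is a doubling. Differences are KO minus WT on this scale. That percentile ranged from 1435 to 1984 units of intensity on the WT arrays and from 1599 to 2633 on the KO arrays, and 55.8 to 66.5% of spots were well above background. The scanner software marked 4.87 to 17.1% of the spots of an array as not uniform or as outliers, most on WT 3 and KO 1. Such marks took 35 of the 90 values of the 15 probes (38.9%), against 7% of all probe values and 41.2% among the brightest 1% of probes. By array, 6, 5 and 8 of 15 values were marked for WT 1 to WT 3 and 9, 3 and 4 for KO 1 to KO 3. Saturation was not reached on any array, and all 15 probes were well above background on all 6 arrays. For this reason each gene is given with the marked spots left out, where at least 2 unmarked values remained in each group, and with the marked spots kept.

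For none of the 10 genes did the difference between KO and WT mice pass after adjustment over all genes, in either treatment of the marked spots. With the marked spots left out, 6 of the 10 genes could be tested, and 0 were past an unadjusted limma p of 0.05, where 8.82% of the 14711 tested genes were lower and 10% higher in KO mice and 0.184% passed after adjustment. *Lpl*, *Cd36*, *Fabp3* and *Fabp4* had too few unmarked values. Of the 6 tested, 2 had a lower and 4 a higher mean in KO mice, where 52.9% of all genes had a lower mean, and the median difference was 0.04, against -0.03 over all genes. With the marked spots kept, all 10 were tested, 7 had a lower mean in KO mice, where 55.9% of all 16110 tested genes did, and the median difference was -0.25 against -0.06 over all genes. *Vldlr* alone was then lower at an unadjusted p under 0.05, 1 of 10 genes beside 11.1% of all genes, and 0 passed after adjustment, beside 0.472%. *Vldlr* and *Fabp5* were the 2 genes whose KO values all lay below the WT values, in both treatments, a pattern that 17.2% of all genes had with the marked spots left out and 17.1% with them kept. The smallest adjusted p among the 10 genes was 0.294 with the marked spots left out and 0.218 with them kept.

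**Figure D1:**
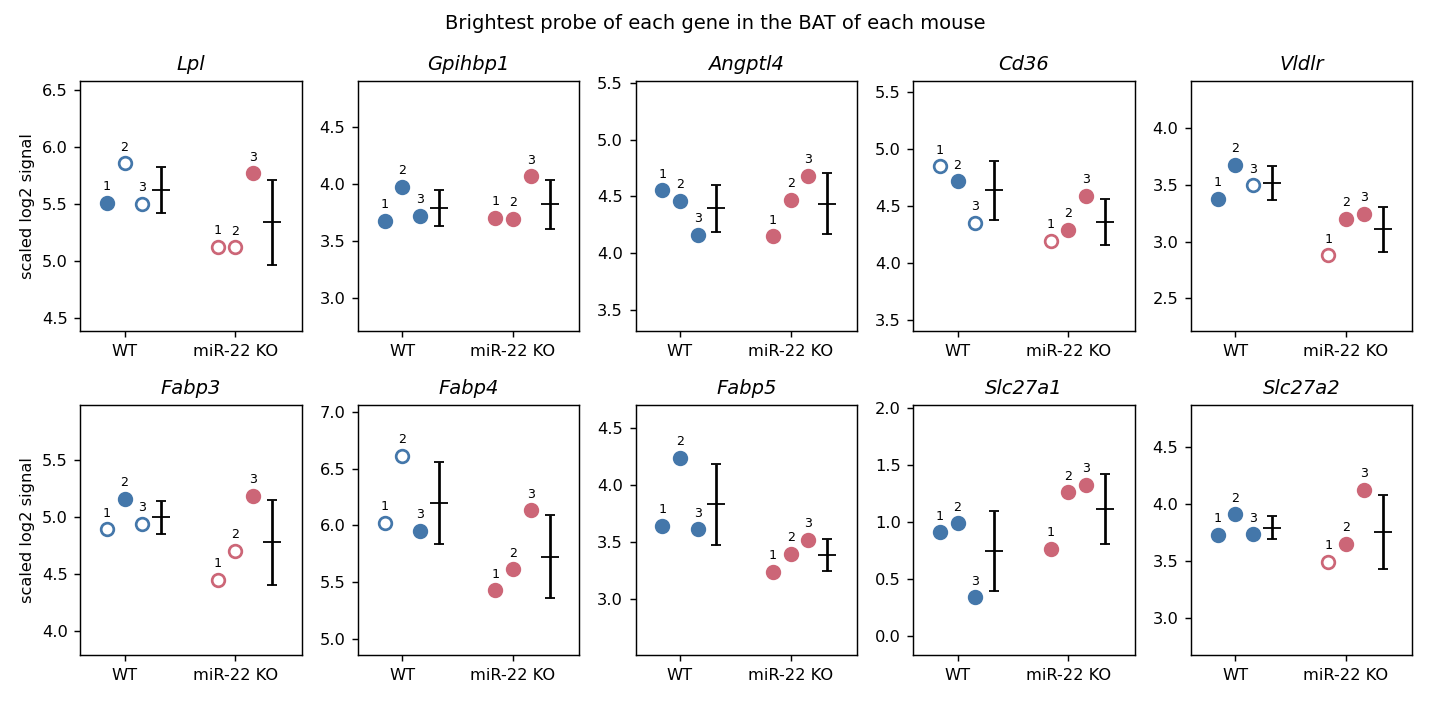
Scaled log2 signal (vertical axes, each covering its own range) of the brightest probe of each gene in WT and KO mice numbered 1 to 3, with open circles for values marked by the scanner software and bars for the mean ± SD of all 3 mice. KO 3 is the highest KO mouse for all 10 genes, and only for *Vldlr* and *Fabp5* do the KO points all lie below the WT points.

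Among the genes of the vessel wall, *Lpl*, whose enzyme frees the fatty acids, was measured by 3 probes. The brightest read 5.51, 5.86 and 5.50 in WT mice and 5.12, 5.12 and 5.77 in KO mice, and only the first WT and the last KO value were unmarked. KO 1 and KO 2 were below every WT mouse and KO 3 was within the WT range. With the marked spots kept the difference was -0.29 (SE 0.22, n = 3 per group, limma adjusted p = 0.473), a fold of 0.821 with a 95% interval of 0.572 to 1.18. The second probe read 4.48, 4.48 and 4.55 in WT mice and 4.28, 4.30 and 4.30 in KO mice, 5 of the 6 values being marked. All KO values of that probe were below all WT values, by 0.21 (SE 0.13, adjusted p over probes by limma = 0.436), as for 13.6% of all probes with the marked spots kept. The third probe overlapped, with 3.05 to 3.49 in WT and 3.27 to 3.40 in KO mice, and its mean was 0.05 higher in KO mice.

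*Gpihbp1*, the endothelial anchor of the lipase, had no marked value and read 3.68, 3.97 and 3.72 in WT mice and 3.70, 3.70 and 4.07 in KO mice. The groups overlapped, with a difference of 0.03 (SE 0.17, adjusted p by limma = 0.922) and a fold of 1.02 with a 95% interval of 0.778 to 1.35. *Angptl4*, the inhibitor of the lipase and a target of the fatty acid sensing PPAR receptors, read 4.55, 4.46 and 4.17 in WT mice and 4.15, 4.47 and 4.68 in KO mice, also without a marked value. Its difference was 0.04 (SE 0.19, adjusted p by limma = 0.915), a fold of 1.03 with an interval of 0.754 to 1.40. A change of more than about 1.4-fold lay outside the intervals of both genes at this scaling.

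Of the receptors, *Cd36* read 4.85, 4.72 and 4.35 in WT mice and 4.20, 4.29 and 4.59 in KO mice, with 3 of the 6 values marked. KO 1 and KO 2 lay below all WT mice and KO 3 between WT 3 and WT 2. The difference with the marked spots kept was -0.28 (SE 0.18, limma adjusted p = 0.409), and the interval of the fold, 0.608 to 1.12, included no change.

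*Vldlr*, the receptor for very low density lipoprotein, was lower in every KO mouse than in any WT mouse on both of its probes. The brighter probe read 3.37, 3.67 and 3.50 in WT mice and 2.88, 3.20 and 3.24 in KO mice, WT 3 and KO 1 being marked. With the marked spots kept the difference was -0.41 (SE 0.16, limma adjusted p = 0.218, unadjusted p under 0.05), a fold of 0.754 with a 95% interval of 0.581 to 0.979. With the 2 marked values left out it was -0.30 with 2 mice per group (SE 0.20, limma adjusted p = 0.453). The dimmer probe read 1.84, 1.80 and 1.65 in WT mice and 1.04, 1.57 and 0.84 in KO mice, only WT 3 being marked. Over all probes its difference was -0.61 with the mark kept (SE 0.21, limma adjusted p = 0.221) and -0.67 with it left out (SE 0.26, limma adjusted p = 0.275), both past 0.05 before adjustment. At that threshold 8.07% of all probes were lower in KO mice with the marked spots kept and 6.74% with them left out, and 0.143 and 0.109% of all probes passed after adjustment. Quantile normalization brought the difference of the brighter probe to -0.18 (limma adjusted p = 0.472). Within the lower row of the slide, which held WT 3 and all KO mice while WT 1 and WT 2 lay in the upper row, it was -0.39 (limma adjusted p = 0.650). Without KO 1 it was -0.29, without WT 2 it was -0.33 and without WT 3 it was -0.42, and in each of these 5 cases the unadjusted p was over 0.05.

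The binding proteins had lower means in KO mice on the brightest probe of each gene, except *Fabp3* under quantile normalization (0.069). With all mice at this scaling none passed the threshold in the main limma fit, though *Fabp5* did in some alternatives given below. *Fabp4*, the main fatty acid binding protein of adipocytes, read 6.02, 6.61 and 5.96 in WT mice and 5.43, 5.61 and 6.13 in KO mice on its brighter probe. KO 3 exceeded WT 1 and WT 3, and the difference was -0.47 with the marked spots kept (SE 0.25, limma adjusted p = 0.33), a fold of 0.721 with an interval of 0.476 to 1.09. On the second probe of *Fabp4* all 6 values were marked, at 5.22, 5.44 and 5.20 in WT mice and 4.85, 4.75 and 5.32 in KO mice, a difference of -0.31. Before scaling, the brighter probe read 129100, 140471 and 99432 units of intensity in WT mice and 109492, 128886 and 112197 units in KO mice, and these ranges overlapped.

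*Fabp5*, the epidermal form that adipocytes and endothelial cells also make, read 3.64, 4.24 and 3.61 in WT mice and 3.24, 3.39 and 3.52 in KO mice with no value marked. Every KO value was below every WT value, with a gap of under 0.1 between KO 3 and WT 3. The difference was -0.45 (SE 0.20, limma adjusted p = 0.294), a fold of 0.734 with an interval of 0.524 to 1.03. Without WT 2, the highest mouse, it was -0.24 (limma adjusted p = 0.489). Scaling by the median of the detected probes gave -0.52, normexp background correction -0.49 and trend and robust eBayes -0.45. Each was past 0.05 before adjustment, with adjusted p by limma of 0.226, 0.323 and 0.243. Quantile normalization gave -0.21, the processed table -0.20 and the lower row of the slide -0.23, with adjusted p by limma of 0.49, 0.487 and 0.808. *Fabp3*, the form of heart and muscle that BAT also expresses, read 4.89, 5.16 and 4.94 in WT mice and 4.45, 4.71 and 5.19 in KO mice on its brighter probe, with 4 values marked. That probe gave -0.22 (SE 0.21, limma adjusted p = 0.572) with the marked spots kept, whereas the second *Fabp3* probe gave 0.09, with 3.95 to 4.58 in WT and 4.28 to 4.46 in KO mice. The 2 probes of *Fabp3* thus differed in sign, and so did the probes of *Lpl*, whereas those of *Vldlr* and of *Fabp4* had the same sign.

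Both transporters overlapped between the groups. *Slc27a1*, the fatty acid transporter of muscle and brown fat, read 0.91, 0.99 and 0.34 in WT mice and 0.76, 1.26 and 1.33 in KO mice with no value marked, a difference of 0.37 (SE 0.24, limma adjusted p = 0.425) and a fold of 1.29 with an interval of 0.875 to 1.91. WT 3 was the lowest mouse, and it was also the lowest for a list of 27 skeletal muscle genes, whose mean scaled log2 signal was 2.20, 1.52 and -3.66 in WT mice and -0.41, 3.33 and 1.38 in KO mice. Without WT 3 the difference was 0.17 and without KO 1 it was 0.55, with adjusted p by limma of 0.729 and 0.336. With the muscle mean as a covariate the difference of *Slc27a1* was 0.21 (limma adjusted p = 0.554). Within the lower row of the slide, where WT 3 is the single WT mouse, it was 0.78 (limma adjusted p = 0.507), past 0.05 before adjustment. *Slc27a2*, an acyl-CoA synthetase of very long chains, read 3.73, 3.91 and 3.74 in WT mice and 3.49, 3.65 and 4.12 in KO mice, KO 1 being marked. Its difference was 0.10 without and -0.04 with the marked value, and both intervals of the fold, 0.763 to 1.5 and 0.715 to 1.33, included no change.

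**Figure D2:**
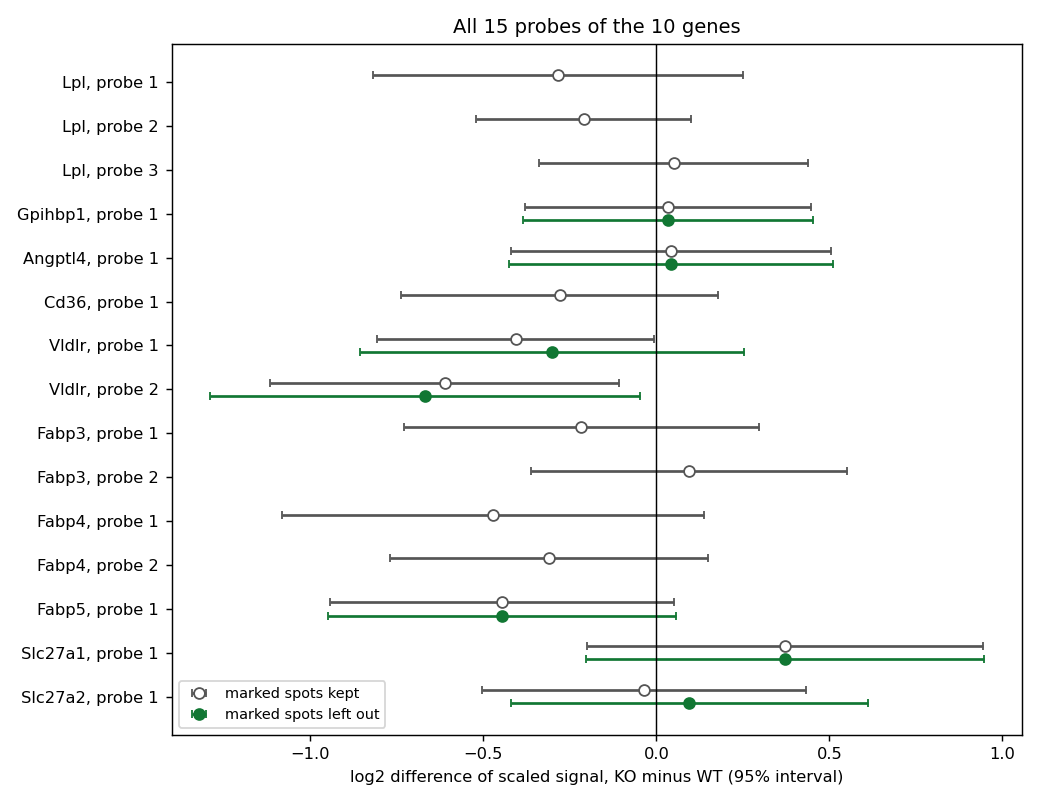
Difference between KO and WT means (horizontal axis, log2 of scaled signal) for all 15 probes, with 95% intervals from limma, for marked spots kept (open grey circles) and left out (filled green circles, drawn where at least 2 unmarked values per group remained). Except for the 2 *Vldlr* probes, every interval includes 0, and with the marked spots left out so does that of *Vldlr* probe 1.

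The mice stood in a similar order for most of the 10 genes on the scaled signal. Pearson's r over the 6 arrays was 0.95 between *Lpl* and *Fabp4*, whereas *Slc27a1* had an r of 0.12 with *Lpl* and -0.16 with *Vldlr*. On that signal, KO 3 was the highest KO mouse for 10 of 10 genes and KO 1 the lowest for 8, while WT 2 was the highest WT mouse for 8. KO 1 lay below the lowest WT mouse for 8 genes and KO 2 for 7, whereas KO 3 did so for 2 genes and lay above the highest WT mouse for 5. KO 3 and WT 2 are the arrays with the lowest 75th percentile of their group. On the unscaled intensity KO 3 was the lowest KO mouse for 8 genes and KO 2 the highest for 10, and WT 1 was the highest WT mouse for 8. After quantile normalization KO 2 was the highest KO mouse for 6 genes and KO 3 for 4, and WT 1, WT 2 and WT 3 were the highest WT mouse for 4, 3 and 3. The order of the mice therefore turned with the scaling. Without KO 3 and with the marked spots kept, 4 of the 10 genes were lower in KO mice at an unadjusted p under 0.05, beside 13.4% of all genes, with differences of -0.50 for *Lpl*, -0.42 for *Fabp3*, -0.68 for *Fabp4* and -0.47 for *Vldlr*, again with none after adjustment.

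Quantile normalization, which gives every array the same distribution, moved the differences of all 10 genes upward, to a median of 0.03, and 5 of the 10 then had a lower mean in KO mice. *Lpl* read 5.53, 5.44 and 5.49 in WT mice and 5.49, 5.44 and 5.52 in KO mice on that scale, a difference near 0, and *Fabp4* differed by -0.07 and *Cd36* by -0.02. *Gpihbp1* read 3.65, 3.69 and 3.67 in WT mice and 3.95, 3.91 and 3.96 in KO mice. The difference of *Gpihbp1* was then 0.27 with the marked spots left out (SE 0.09, limma adjusted p = 0.216), and it was 0.28 in the processed table (limma adjusted p = 0.18), both past 0.05 before adjustment. These 2 values are not separate checks, as the processed table nearly repeated quantile normalization for this gene. At that threshold 7.95% of all genes were higher in KO mice under quantile normalization and 8.56% in the processed table. Over all genes, with the marked spots kept, the median shift of a gene was -0.0090 under quantile normalization and -0.078 under scaling by the median of the detected probes. That median covers genes of every signal level, whereas all of the 10 genes but *Slc27a1* had WT means over 3.5. With the marked spots left out, quantile normalization also moved the bright *Dbi* from -0.63 to -0.33, and the dim *Fabp7* from -1.16 to -1.32. Whether the shift follows brightness was not tested. Under scaling by the median, *Gpihbp1* and *Angptl4* each read -0.04, so the sign of these 2 genes turned with the scaling.

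**Figure D3:**
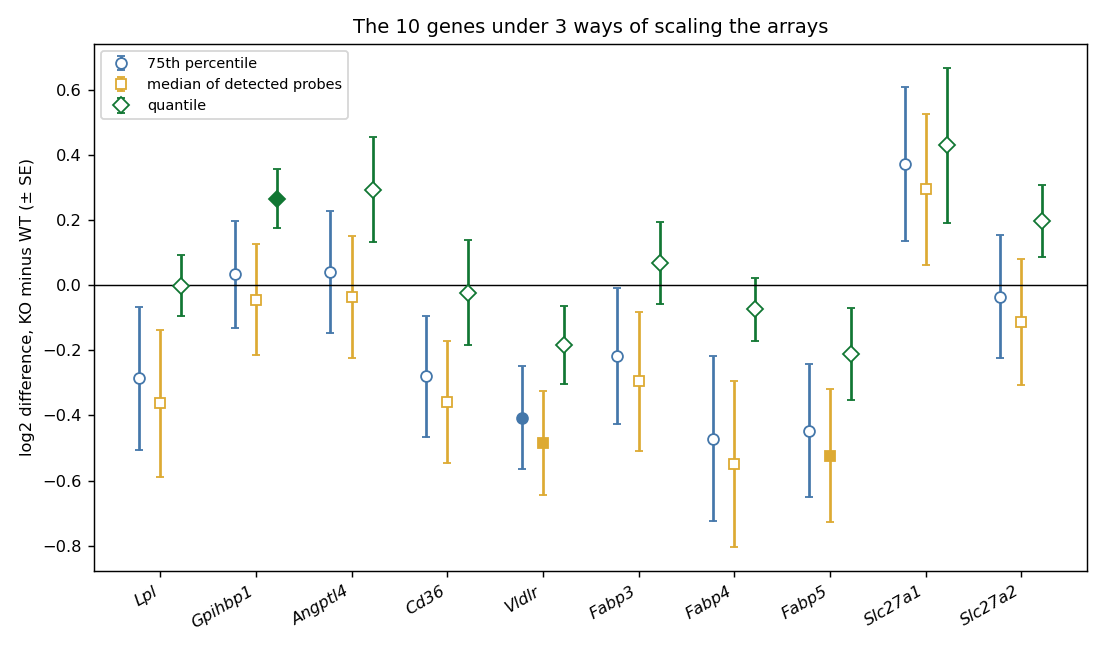
Difference between KO and WT means (vertical axis, log2) of the 10 genes with the marked spots kept, under scaling to the 75th percentile, scaling by the median of the detected probes and quantile normalization, with bars for the SE and filled symbols for an unadjusted limma p under 0.05. Values of quantile normalization lie highest for every gene, *Vldlr* is filled under the other two scalings, *Fabp5* under the median, and *Gpihbp1* is filled under quantile normalization.

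The tissue carried the genes that define it. All 15 brown adipocyte markers, among them *Ucp1*, which encodes the uncoupling protein of BAT, and all 13 general adipocyte markers were well above background on all 6 arrays. In bulk tissue, fewer cells of a type and less RNA per cell cannot be told apart. The mean of the general adipocyte list was 3.98, 4.29 and 4.05 in WT mice and 3.77, 3.82 and 4.25 in KO mice, so it too was highest in WT 2 and KO 3, and that of the brown list was 2.75 to 3.05 in WT and 2.37 to 2.83 in KO mice. For the endothelium, the cell type of *Gpihbp1*, the mean of 20 genes was 1.0 to 1.1 in WT and 1.08 to 1.21 in KO mice, *Erg* being above background on 2 arrays and the other 19 on all. The 18 macrophage genes were all above background, with means of 0.21 to 0.54 in WT and 0.57 to 0.90 in KO mice, ranges that do not overlap. The same held for 12 white adipocyte genes (-3.28 to -3.13 in WT and -2.81 to -2.62 in KO mice), 10 hepatocyte genes (-5.58 to -5.33 and -5.06 to -4.76) and 12 measured lymphocyte genes (-4.67 to -4.08 and -4.07 to -3.87). Of the hepatocyte genes, *Apoa2*, *Serpina1a* and *Cyp2e1* were well above background on all arrays and *Alb* on 3, while *Apoa1*, *Apob*, *Fgb*, *Fga* and *Tat* were not on any array. Of the white adipocyte genes 9 were well above background on all arrays, *Wt1* was on 2, and *Hoxc10* and *Tcf21* were on none. *Hoxc8* had a lower mean in KO mice, unlike its list. Of the lymphocyte genes 8 were well above background on all arrays, and the ranges of that list nearly touched. These lists had no filter on dim probes. Without that filter the median difference over all genes was 0.098 with the marked spots kept, against -0.06 with it. The part of these cell types in the differences of the 10 genes was not tested.

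**Figure D4:**
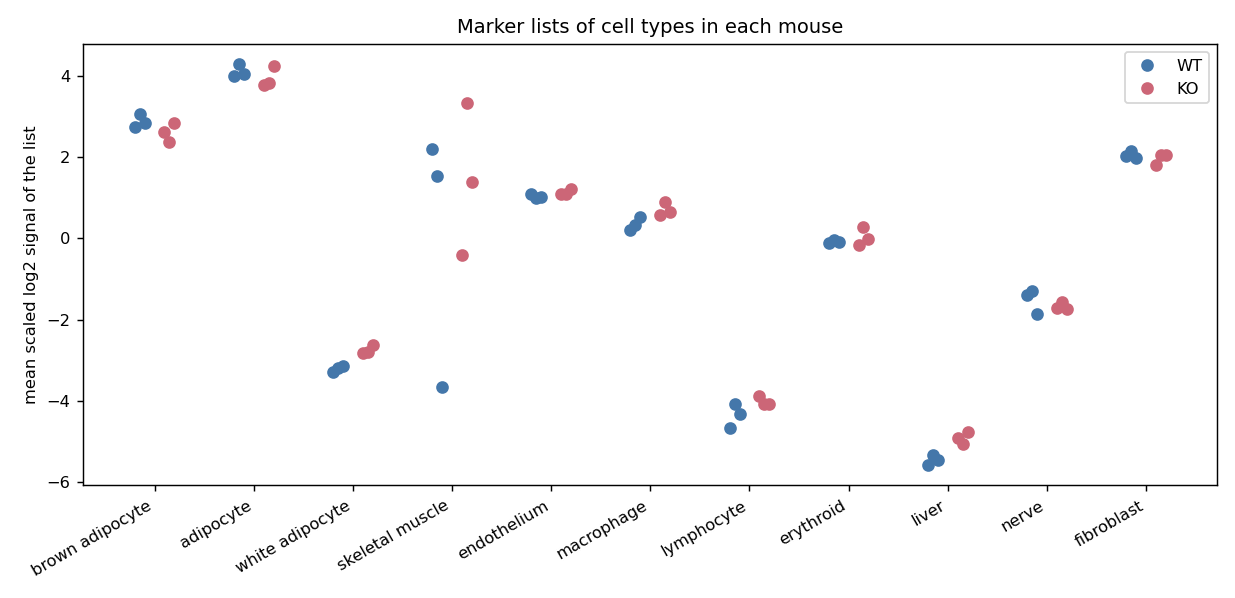
Mean scaled log2 signal (vertical axis) of marker lists of 11 cell types in each WT (blue) and KO (red) mouse. Skeletal muscle spreads widest, from -3.66 in WT 3 to 3.33 in KO 2, while the adipocyte and endothelium lists lie within 0.519 and 0.206 of each other over the 6 mice.

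Around the 10 genes, 111 further genes of fatty acid uptake were grouped into 6 lists by role. With the marked spots left out 83 were tested, of which 11 were lower and 8 higher in KO mice at an unadjusted limma p under 0.05, beside the 8.82 and 10% of all genes, and 0 passed after adjustment. Their median difference was -0.08. With the marked spots kept, 16 of 102 were lower and 9 higher, beside 11.1 and 9.47% of all genes, and the median was -0.15. The genes named next were past that threshold in both treatments without overlap of the groups, and the values given are those with the marked spots left out. None passed after adjustment in that fit, the smallest adjusted p by limma being 0.0743 for *Fabp7*. Of these 16 genes, 14 could be fitted within the lower row of the slide, where *Apln*, *Fabp7* and *Msr1* were past 0.05 before adjustment and the other 11 were not.

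Of the genes of lipase and lipoprotein handling, 1 of 15 tested was lower and 2 were higher. Both higher calls were on dim probes, with WT means of -2.10 and -6.20. With the marked spots kept, brighter probes stood for these 2 genes, with differences of -0.24 and 1.27 in that order. *Lmf1*, which folds lipoprotein lipase in the endoplasmic reticulum, read 2.52, 2.70 and 2.48 in WT mice and 1.93, 1.94 and 2.33 in KO mice, a difference of -0.50 (SE 0.16, limma adjusted p = 0.186). Its KO values all lay below its WT values, while those of *Lpl* itself did not on the brightest probe. Among the lipoprotein and lipid receptors, 1 of 14 was lower and 1 higher. *Msr1*, the macrophage scavenger receptor, read -4.15, -5.41 and -4.40 in WT mice and -3.38, -3.29 and -3.13 in KO mice, a difference of 1.39 (SE 0.32, limma adjusted p = 0.107). The macrophage list was also higher in each KO mouse than in each WT mouse, and the part of macrophages in it was not tested. *Sort1*, a sorting receptor, was lower on its brightest probe at -0.46 (SE 0.15), but the mean of its probes gave 0.37 and leaving out WT 1 gave 0.035.

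Of the other fatty acid binding proteins, 4 of 14 were lower and 0 higher. *Fabp7*, the brain-type member of the family, read -2.90, -3.15 and -2.63 in WT mice and -3.85, -3.92 and -4.39 in KO mice. Its difference of -1.16 (SE 0.21, limma adjusted p = 0.0743) was larger than that of any of the 10 genes, on a probe that was above background on all arrays. Its adjusted p was 0.0384 with probes required above background on all arrays, 0.0406 with trend and robust eBayes and 0.0489 in the processed table, and up to 0.306 in the other alternatives. *Pmp2*, the member of peripheral myelin, read -4.28, -5.01 and -5.35 in WT mice and -6.50, -5.79 and -6.49 in KO mice, a difference of -1.38 (SE 0.32, limma adjusted p = 0.107). Since KO 1 and KO 3 were not well above background, 1 of 3 KO arrays measured it and the size of the difference is uncertain. The mean of 12 genes of nerve and Schwann cells was -1.85 to -1.29 in WT and -1.73 to -1.57 in KO mice, ranges that overlap. *Dbi*, which binds acyl-CoA, read 5.16, 5.71 and 5.10 in WT mice and 4.58, 4.53 and 4.96 in KO mice, a difference of -0.63 (SE 0.21, limma adjusted p = 0.197).

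Among the other transporters and acyl-CoA synthetases, 2 of 12 were lower and 1 higher. *Acsf3*, the mitochondrial malonyl-CoA synthetase, had a difference of -0.63 (SE 0.17), and *Acss2*, the cytosolic acetyl-CoA synthetase, one of -1.05 (SE 0.26). *Got2*, a mitochondrial aminotransferase also described as a fatty acid binding protein of the plasma membrane, read 1.35, 1.30 and 1.15 in WT mice and 1.35, 2.34 and 2.21 in KO mice, a difference of 0.70 (SE 0.27, limma adjusted p = 0.232), with KO 1 barely above WT 1, and 9 of 20 alternatives ended its call. For CD36 trafficking and caveolae, 0 of 14 were lower and 2 higher. *Ehd2*, which stabilizes caveolae, read 1.18, 0.67 and 1.05 in WT mice and 1.36, 1.47 and 1.58 in KO mice, a difference of 0.50 (SE 0.17, limma adjusted p = 0.2). *Lyn*, a kinase that acts downstream of Cd36, was higher by 0.43 (SE 0.16) with 2 unmarked KO values, and 7 of 18 alternatives ended its call.

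Of the fatty acid signals and regulators, 3 of 14 were lower and 2 higher, with a median of -0.29. The apelin pair was higher in KO mice. *Apln*, the secreted ligand, read -1.55, -2.21 and -1.93 in WT mice and -0.41, -0.91 and -1.25 in KO mice, a difference of 1.04 (SE 0.26, limma adjusted p = 0.125). *Aplnr*, its receptor on endothelial cells and 1 of the 20 endothelial markers, read -0.20, -0.15 and 0.18 in WT mice and 0.61, 1.19 and 0.28 in KO mice, a difference of 0.75 (SE 0.25, limma adjusted p = 0.194). *Ffar4*, the cell-surface receptor for long-chain fatty acids, read 2.95, 2.90 and 2.70 in WT mice and 2.04, 1.30 and 2.24 in KO mice, a difference of -0.99 (SE 0.25, limma adjusted p = 0.128). *Rxrb* and *Rxrg*, partners of the PPAR receptors, had differences of -0.59 (SE 0.16) and -0.52 (SE 0.18, 2 mice per group), with adjusted p by limma of 0.14 and 0.234. The mean of the *Rxrb* probes gave -0.36, not past 0.05 before adjustment. *Pparg* itself had a difference of -0.33 (SE 0.16, limma adjusted p = 0.322).

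**Figure D5:**
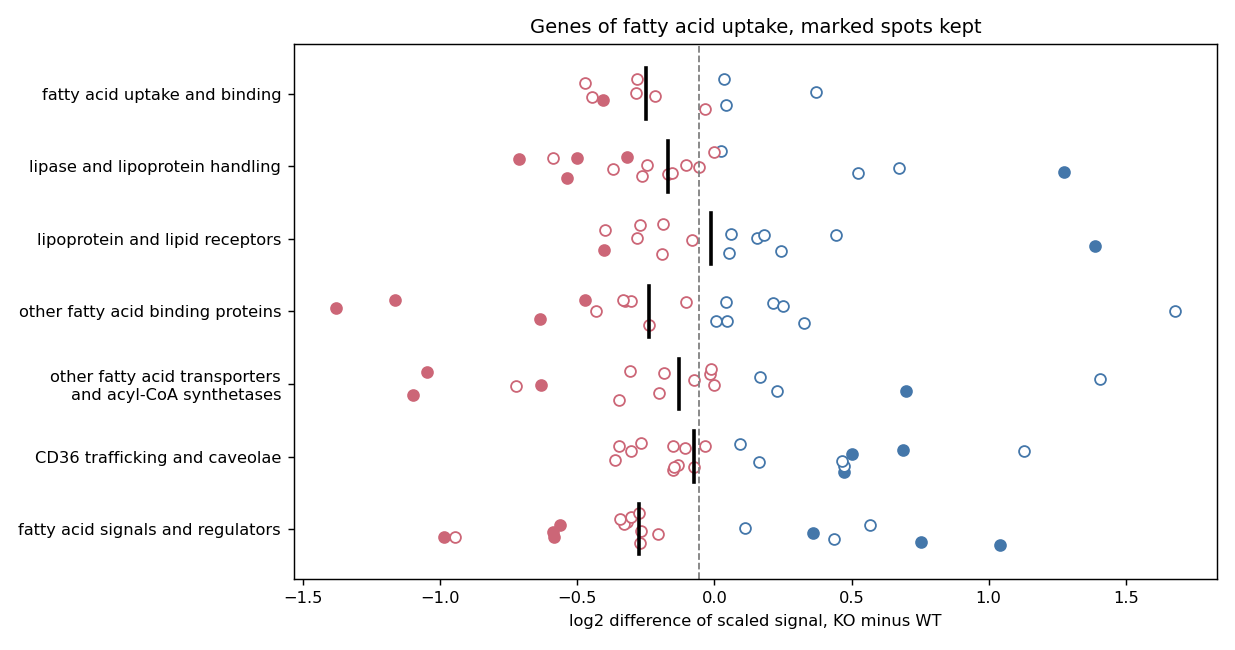
Difference between KO and WT means (horizontal axis, log2 of scaled signal) of each gene of the 7 lists with the marked spots kept, with filled circles for an unadjusted limma p under 0.05, black bars for the median of a list and a dashed line for the median of all genes, -0.06. The 10 genes of uptake and binding lie between -0.47 and 0.37, inside the range of the 102 others tested, -1.38 for *Pmp2* to 1.68 for *Alb*, both of which were not well above background on some arrays.

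Over the 6 arrays, the genes whose scaled signal followed *Lpl* most closely among 14138 genes above background on all arrays were *Luc7l2*, *Gm5069* and *Abcd3*, with Pearson's r of 0.998, 0.997 and 0.997. For *Cd36* they were *Hspa8*, *Gzf1* and *Acadl* (r of 0.983, 0.978 and 0.975), and for *Gpihbp1* they were *Gm46252*, *Ctla2b* and *Flna* (r of 0.997, 0.996 and 0.993). These values describe 6 points that share the scaling of their arrays, and *Lpl* itself had an r of -0.948 with the log2 of the 75th percentile by which it was divided.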

How the data were processed

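RNA of BAT was hybridized to 6 single-dye Agilent arrays on 1 slide, with 3 arrays per genotype. The authors deposited scanner intensity values from Agilent Feature Extraction (version 10.7 per the labels, 11.5.1.1 per the file headers), background-subtracted and not scaled between arrays. The authors also deposited 1 matrix of processed log2 values over 27497 probes, whose columns had medians of 8.82 to 8.85, a shared maximum and a correlation of at least 0.9998 with their own array. Its processing is not given in the sources used here, and it served as an alternative that covers 5 of the 15 probes.

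Each signal was taken as log2 after division by the 75th percentile over non-control spots. Probes well above background on at least 3 arrays, with at least 2 unmarked values per group, were tested, and the brightest testable probe stood for a gene. Probes were named through RefSeq accessions (33767 of 56605 matched). The array files name the mm9 build, so no positions of the 10 genes are printed. Groups came from the labels, without pairing. The tests were two-sided with lmFit and eBayes of limma 3.58.1 (R 4.3.3, package data.table, version 1.17.8) over all genes, at 0.05 on the unadjusted p, the threshold of the study's methods, and on the Benjamini-Hochberg adjusted p. With 3 arrays per group, their number limits the precision, given as SE. Steps were tested on simulated data.

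The 10 genes, the lists and the alternatives were chosen with earlier results of these data known. Named besides the 10 were genes of the 6 lists past 0.05 in both treatments of marked spots and without overlap, at most 6 per list, the 3 genes most like *Lpl*, *Cd36* and *Gpihbp1*, and *Mir22hg*. *Pparg* and the marker genes are given outside that rule and were chosen after their values were seen. Alternatives were keeping marked spots, normexp with an offset of 50, quantile normalization, scaling by the median of the detected probes, averaging the probes of a gene, dropping the filter on dim probes or extending it to all 6 arrays, trend and robust eBayes, SAM over the 20 splits, the methods' t-test, the slide row as a block, the muscle mean as a covariate, the authors' processed values and leaving out each mouse. Their versions with marked spots kept, apart from quantile normalization, were added after seeing the data. Comparisons of genes with and without miR-22 target sites were not analysed here.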

Additional observations from a re-analysis of the deposited data

How the results depend on the processing

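With marked spots left out, the 10 genes gave 0 lower and 0 higher calls. Median scaling, normexp, and trend and robust eBayes each gave 1 lower, *Fabp5*, beside 12.9, 8.98 and 10.7% of all genes. Keeping the marked spots gave 1 lower, *Vldlr*, beside 11.1%. Quantile normalization, with marks left out or kept, and the authors' processed values each gave 1 higher, beside 7.95, 8.01 and 8.56% of all genes. Of the 10 genes, 6 were tested with marked spots left out, 10 with them kept and 5 in the authors' values. Leaving out a mouse gave 0 to 1 lower, the call coming without KO 2, when the dimmer *Vldlr* probe stood for the gene. Without KO 2, 7.5% of all genes were lower. With marked spots kept, the 1 lower call became 0 under quantile normalization, no filter, SAM, the slide row and the authors' values, 2 under median scaling and under trend and robust eBayes, and 0 to 4 without a mouse, 4 without KO 3 and 0 without WT 2 or KO 1, while 1 higher call arose under quantile normalization, the slide row and the authors' values. With marked spots kept, 16.4% of all genes were lower under median scaling and 13% under trend and robust eBayes. *Vldlr* lost its call under 9 of 18 alternatives. No call of the 10 genes passed after adjustment in any of these, the smallest adjusted p by limma being 0.153.

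Over all genes the 1297 lower calls became 308 within the slide row and 726 to 1372 without a mouse, lowest without WT 2, and the 1476 higher calls became 893 with normexp and 810 within the row. With marked spots kept, the 1794 lower became 496 within the row and 1115 to 2161 without a mouse, with 1174 without KO 1, and the 1526 higher became 894 with normexp and 880 within the row. Among the other genes of uptake, the 11 lower became 1 within the row and 7 to 13 without a mouse, 7 without WT 2 or KO 2. Their 8 higher became 5 with normexp, the row and the muscle covariate, and 4 to 12 without a mouse, 4 without WT 2 or KO 3. With marked spots kept, the 16 lower became 25 with median scaling, 4 within the row, 10 in the authors' values and 11 to 27 without a mouse, 27 without KO 3.

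Signs changed as follows. *Gpihbp1* became -0.044 with median scaling and lay between -0.090 and 0.13 without a mouse, at -0.023, -0.0020 and -0.090 without WT 1, WT 3 and KO 3, alike in both treatments of the marks. *Angptl4* became -0.036 with median scaling and -0.055 with the muscle covariate, and lay between -0.083 and 0.18 without a mouse, at -0.073 and -0.083 without WT 3 and KO 3, again in both. *Slc27a2* became -0.035 with marked spots kept, from where it turned to 0.20 with quantile normalization and 0.021 within the row, and to 0.024, 0.095 and 0.018 without WT 2, KO 1 and KO 2. *Cd36* turned to 0.0092 within the row and *Fabp3* to 0.069 with quantile normalization. *Sort1* turned to 0.37 with the mean of its probes and lay between -0.48 and 0.035 without a mouse, the latter without WT 1. *Fabp7*, *Msr1* and *Apln* stayed past 0.05 before adjustment in each of 20 alternatives. The cause of these shifts was not tested. The row fit compares 1 WT mouse with 3 KO mice and assumes that this mouse varies like the rest. No paired analysis was possible because the labels give the mice of the groups no shared replicate numbers.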
